A study of Mus musculus with 4 samples.

Results

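The Dlk1-Meg3 cluster is an imprinted stretch of mouse chromosome 12 that holds protein-coding genes and long noncoding RNAs expressed from opposite parental copies. Its 6 genes described here, Dlk1, Meg3, Rian, Mirg, Rtl1 and Dio3, were taken by symbol from the 23235 genes of the deposited table. They were picked because the noncoding RNAs are low in both knockout libraries, so the knockout against wild-type values of the members are a description and carry no test. All 4 libraries come from mouse embryonic stem (ES) cells of strain 129S4/SvJae, grown in serum with leukemia inhibitory factor. The wild-type line, of J1 background, gave WT_ES at day 0, and a line lacking both Dnmt3a and Dnmt3b, the genes of the DNA methyltransferases that place new methyl groups, gave DKO_ES at day 0. Neural progenitor cells were derived from each line through embryoid bodies (4 days) and retinoic acid (2 days), and the day 6 cells gave WT_NP and DKO_NP. Earlier passages were kept on irradiated feeder cells, which were removed over at least 2 passages, and the labels do not say whether the knockout line is 1 clone.

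Imprinted genes are read from only the maternal or only the paternal chromosome, according to methyl marks set in the germ line. In this cluster the mark lies in the region between Dlk1 and Meg3 and is set on the paternal copy. Dlk1, Rtl1 and Dio3 are read mainly from the paternal chromosome, whereas Meg3, Rian, Mirg, an RNA antisense to Rtl1 and many microRNAs and small nucleolar RNAs are read from the unmethylated maternal one. Among mouse pluripotent lines the cluster is known to vary in its methylation and in the level of Meg3.

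The promoter of Meg3 is shown because the level of this gene differed most of the 6 between the neural progenitor libraries of the genotypes. The windows of Dlk1 and Dio3 are shown because these coding genes at the ends of the cluster did not follow Meg3 in those libraries. The sequences are RefSeq's on build GRCm38.p6, plus strand. The Meg3 window is chr12:109540746-109541045, from 250 bases before to 50 after the start, and the other windows, chr12:109452573-109452822 for Dlk1 and chr12:110278980-110279229 for Dio3, end at the start. Capitals mark the motifs CCAAT, TGACGTCA and TATATAA in Meg3, and every CG in Dlk1 and Dio3.
Meg3: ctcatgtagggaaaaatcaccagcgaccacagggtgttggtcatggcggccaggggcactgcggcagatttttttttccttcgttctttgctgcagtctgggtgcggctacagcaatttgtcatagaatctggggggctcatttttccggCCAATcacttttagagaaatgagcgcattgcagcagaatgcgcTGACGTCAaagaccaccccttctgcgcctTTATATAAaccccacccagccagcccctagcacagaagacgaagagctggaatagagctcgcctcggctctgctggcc
Dlk1: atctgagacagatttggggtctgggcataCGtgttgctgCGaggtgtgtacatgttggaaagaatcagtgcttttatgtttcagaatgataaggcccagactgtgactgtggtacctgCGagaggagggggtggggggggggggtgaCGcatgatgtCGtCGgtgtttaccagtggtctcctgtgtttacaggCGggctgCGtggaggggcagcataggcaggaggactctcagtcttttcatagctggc
Dio3: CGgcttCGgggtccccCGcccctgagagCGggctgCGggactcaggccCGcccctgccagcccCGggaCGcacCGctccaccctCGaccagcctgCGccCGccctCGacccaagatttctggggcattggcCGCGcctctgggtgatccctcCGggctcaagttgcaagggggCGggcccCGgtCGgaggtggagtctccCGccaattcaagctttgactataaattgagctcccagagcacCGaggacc
In Meg3 the match to TGACGTCA, the letters of the cyclic AMP response element, lies 57 to 50 bases before the start. Searched on both strands, it is present in 1.79% of 32817 RefSeq promoter windows of 300 bases. The motif TATATAA, of the kind bound by the general transcription machinery, matched on both strands in overlapping positions 28 to 21 bases before the start and occurs in 3.25% of the windows. CCAAT, 100 to 96 bases before the start, occurs in 37.4%. The 300-base windows hold 9 CG in Dlk1, 13 in Meg3, 0 in Rian, 10 in Mirg and 25 in Dio3, against a median of 7 over all windows. A second Meg3 window in the RefSeq table, chr12:109545148-109545447, holds 1 CG. The RNA tables hold no methylation measurement of these windows.

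Values are FPKM, fragments scaled to transcript length and to library size, which are per length and so can be set side by side between genes. Ratios between libraries were computed after median scaling, which sets the typical gene equal between libraries, because the deposited values shifted the median of all genes by a log2 ratio of -0.82 in WT_NP against WT_ES and by -0.43 in DKO_NP against DKO_ES. Each group holds 1 library, so no difference has a replicate check and no test was run. The 95% intervals come from approximate read numbers and cover the counting error of reads at most. PCR copies are not independent molecules, so the error in molecules can be larger. The steps in the low values gave library denominators in the ratio 1 for WT_ES, 1.09 for DKO_ES, 2.63 for WT_NP and 1.82 for DKO_NP, so that 1 read is worth least in WT_NP. Of the targeted genes, Dnmt3a read 35.3 FPKM in wild-type and 12.3 in knockout ES cells, and 17.2 and 4.14 in their neural progenitors. Dnmt3b read 140.3 and 13.9 FPKM in ES cells and 9.98 and 5.22 in neural progenitors. Of 10 neural progenitor markers, 9 reached 1 FPKM in WT_NP and 10 in DKO_NP, but so did 10 and 8 of 10 endoderm markers. In these bulk libraries fewer cells of a type and less RNA per cell cannot be told apart.

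The noncoding RNAs were the most abundant members in wild-type ES cells and were low in the knockout. Meg3, the long noncoding RNA at the head of the maternally read series, had 118 FPKM in WT_ES (interval 114 to 122) and 199 in WT_NP (195 to 202), but 7.16 in DKO_ES (6.22 to 8.21) and 1.27 in DKO_NP (0.973 to 1.63). Both wild-type libraries were thus high and both knockout libraries low. After scaling it was 15.6-fold lower in DKO_ES than in WT_ES (13.5 to 18.0) and 211-fold lower in DKO_NP than in WT_NP (164 to 276). On the log2 scale with a pseudocount of 1 FPKM, used for all ratios here, these are -3.75, rank 41 from the lowest of 13596 genes, and -6.95, rank 38 of 13601. As deposited the folds were 16.4 in ES cells and 156 in neural progenitors. The second lies under its interval, which does not cover the choice of scaling. In WT_ES 4.86% of genes had a higher FPKM than Meg3, and in DKO_NP 53.4% did.

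Rian, the noncoding RNA downstream of Meg3 whose introns carry small nucleolar RNAs, followed the same pattern. The wild-type levels were 189 FPKM at day 0 (182 to 196) and 177 at day 6 (173 to 181), and the knockout levels 9.70 (8.28 to 11.3) and 2.60 (2.04 to 3.27). The knockout was 18.5-fold lower in ES cells (15.8 to 21.7) and 92.2-fold lower in neural progenitors (73.4 to 118). Its intervals rest on an effective length taken as 1000 bases, since no RefSeq-linked transcript was matched.

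Mirg, the noncoding host of microRNAs at the far end of the series, was less abundant per length than Meg3 and Rian, at 18.8 FPKM (16.8 to 20.9) in WT_ES and 19.1 (17.8 to 20.4) in WT_NP. It stood at 0.854 FPKM (0.488 to 1.39) in DKO_ES and 0.415 (0.221 to 0.711) in DKO_NP, on about 16 and 13 reads. The fold was 20.8 lower in ES cells (12.6 to 36.9) and 62.2 lower in neural progenitors (36.2 to 117). Summed, Meg3, Rian and Mirg came to 325 FPKM in WT_ES and 395 in WT_NP, but to 17.7 in DKO_ES and 4.29 in DKO_NP.

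**Figure D1:**
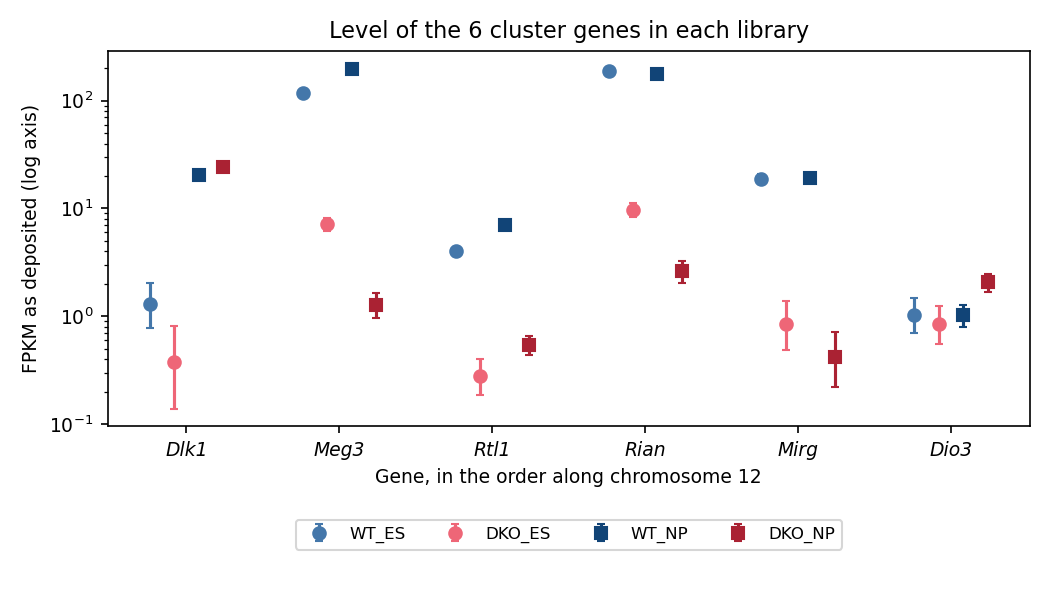
FPKM as deposited (log axis) of the 6 cluster genes in the 4 libraries, with 95% counting intervals from approximate reads. Meg3, Rian, Mirg and Rtl1 are high in WT_ES and WT_NP and low in DKO_ES and DKO_NP, whereas Dlk1 is high in both neural progenitor libraries, at 20.3 and 24.4 FPKM.

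The small RNA genes of the same series have rows of their own, which hold reads over the hairpin; mature microRNAs were not measured. The mature sequences are shown for rows that were above 0 in both wild-type libraries and at 0 in both knockouts and were among those with the most reads in WT_NP or in WT_ES. Capitals mark the seed, bases 2 to 8, which pairs with target messages.
mmu-miR-432: uCUUGGAGuagaucagugggcag
mmu-miR-679-5p: gGACUGUGaggugacucuuggu
mmu-miR-679-3p: aGCAAGGUccuccucacaguag
mmu-miR-453: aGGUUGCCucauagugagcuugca
RefSeq places them at chr12:109595006-109595028, chr12:109715587-109715608, chr12:109715624-109715645 and chr12:109735669-109735692 of GRCm38.p6. Of 58 microRNA genes listed for the cluster, 56 had a row. Of these 8 were above 0 in WT_ES and 28 in WT_NP, but 1 in DKO_ES and 2 in DKO_NP. Among 557 other microRNA rows the shares above 0 were 13.8%, 22.8%, 15.1% and 17.6% in the same order, against 14.3%, 50.0%, 1.79% and 3.57% in the cluster. The cluster rows thus sat below the other microRNA rows in both knockouts and above them in WT_NP, the library with the largest denominator. They belong to the series whose noncoding RNAs were picked for low values in both knockouts. Their low shares there therefore describe the choice at least in part.

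Reads behind these rows are few, and a row listed at 0 may be a failed estimate rather than 0 reads, since Lars2 is listed at 0 in WT_ES. The smallest whole numbers that give the values were 2 reads in WT_ES and 15 in WT_NP for Mir432, 1 and 15 for Mir679, and 3 and 2 for Mir453, with both knockouts listed at 0. In all, 8 rows were above 0 in both wild-type libraries and at 0 in both knockouts, and 25 were above 0 in at least 1 wild-type library and at 0 in both knockouts. Mir431, Mir434 and Mir1188 were the 3 rows above 0 in a knockout, each on 1 read, 28 rows were at 0 everywhere and 0 rows appeared in knockouts alone. The same combined counts were not made for the other microRNA rows, so no background share stands beside them and they are a description only. The small nucleolar RNA row AF357425 carried 7 and 30 reads in wild-type ES cells and neural progenitors and 0 and 1 in the knockout ones.

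**Figure D2:**
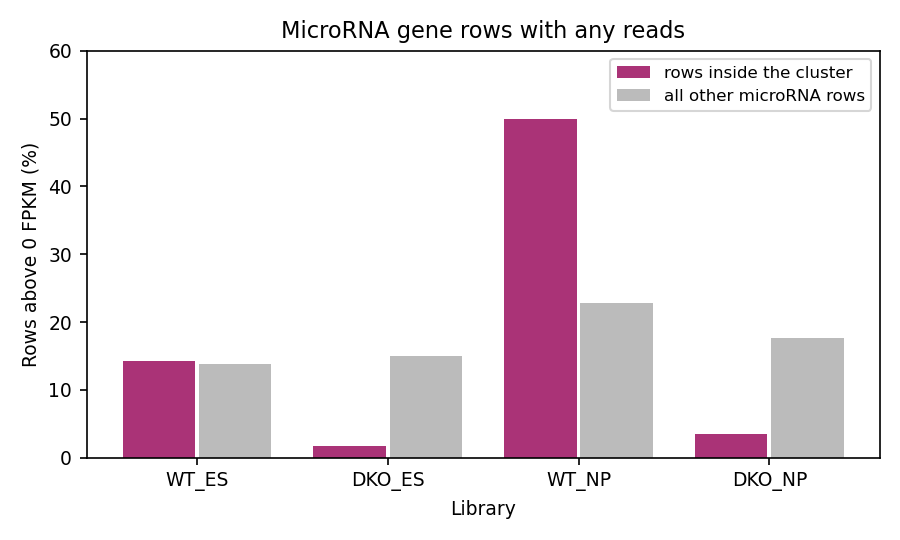
Share of microRNA gene rows above 0 FPKM in each library, for the 56 rows inside the cluster and the 557 rows elsewhere. The cluster share is 50.0% in WT_NP and 1.79% and 3.57% in the knockouts, and the other rows range from 13.8% to 22.8%.

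Rtl1, a paternally read gene derived from a sushi-ichi retrotransposon and needed in the placenta, was also low in the knockouts. Wild-type cells had 4.01 FPKM at day 0 (3.62 to 4.43) and 7.04 at day 6 (6.72 to 7.37), and knockout cells 0.279 (0.187 to 0.400) and 0.536 (0.433 to 0.655). The knockout was 13.6-fold lower in ES cells (9.34 to 20.6) and 17.8-fold lower in neural progenitors (14.5 to 22.1). The strand of the reads is not given, and Rtl1 overlaps the maternally read antisense RNA, so reads of the sense and antisense transcripts cannot be told apart. The noncoding row 6430411K18Rik at this position showed the same order, with 8.40 and 17.0 FPKM in wild-type ES cells and neural progenitors and 0.525 and 1.48 in the knockout ones. The ratio of Meg3 to Rtl1 was 29.4 in WT_ES, 25.7 in DKO_ES and 28.2 in WT_NP, but 2.38 in DKO_NP.

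Dlk1, the paternally read gene of a membrane protein related to Notch ligands, was high in both neural progenitor libraries and low in both ES libraries. The ES levels were 1.30 FPKM in wild type (0.782 to 2.03) and 0.373 in the knockout (0.137 to 0.812), on about 19 and 6 reads. In neural progenitors it stood at 20.3 FPKM (18.9 to 21.7) in WT_NP and 24.4 (22.6 to 26.4) in DKO_NP. The libraries of day 6 were far above those of day 0 in both genotypes. In ES cells it was 3.31-fold lower in the knockout (1.27 to 10.1). In neural progenitors its log2 ratio, knockout against wild type, was -0.16 after scaling and 0.26 as deposited, so the direction depends on the scaling. Meg3 exceeded Dlk1 90.6-fold in WT_ES, 19.2-fold in DKO_ES and 9.81-fold in WT_NP, whereas in DKO_NP Dlk1 exceeded Meg3 19.2-fold.

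Dio3, which encodes the deiodinase that inactivates thyroid hormone, was the lowest member in both wild-type libraries. Wild-type cells had 1.03 FPKM at day 0 (0.696 to 1.47) and 1.02 at day 6 (0.803 to 1.27), and knockout cells 0.843 (0.551 to 1.24) and 2.06 (1.69 to 2.49). The ES libraries overlapped in their intervals, with a fold of 0.861 for knockout over wild type (0.489 to 1.51). DKO_NP was the highest, with a log2 ratio of 0.38 to WT_NP (the fold has an interval of 1.11 to 2.03). Its antisense neighbour Dio3os stayed under 1 FPKM everywhere, between 0.163 and 0.630.

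Counted on the log2 scale with the pseudocount, 4 of 6 (Meg3, Rian, Mirg and Rtl1) were at least 2-fold lower in DKO_ES than in WT_ES, where 1.15% of 13596 genes were, and 0 were higher, against 2.56%. The same 4 were at least 2-fold lower in DKO_NP than in WT_NP, where 7.99% of 13601 genes were, and 0 were higher, against 4.76%. The members were picked by these contrasts, so the counts describe the choice. Dlk1, 3.31-fold lower in DKO_ES without a pseudocount, has a log2 ratio of -0.61 with it and so is not counted. In ES cells Rtl1 was no longer counted with a pseudocount of 5 FPKM or a filter at 5 FPKM. Their median log2 ratio was -2.45 in ES cells and -3.60 in neural progenitors, beside 0.01 over all genes in each. In DKO_NP against WT_NP, 8 of 10 endoderm and visceral endoderm markers were also at least 2-fold lower, their summed level being 238 FPKM in WT_NP and 86.7 in DKO_NP with 0 of the 10 at 0 in either. Primitive red blood cell markers summed to 775 and 76.0 FPKM with 5 of 7 lower, mesoderm markers to 83.8 and 25.01 with 5 of 8 lower, neural progenitor markers to 94.6 and 256 with 7 of 10 higher, and pluripotent ES cell markers to 98.7 and 414 with 5 of 10 higher. In DKO_ES against WT_ES, 5 of 9 fibroblast markers were at least 2-fold lower, with sums of 368 and 232.5 FPKM for the list and 0 of 10 at 0. The part of these cell types in the results was not tested.

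The day 6 values of the members were also set against day 0 within each genotype. In wild-type cells 3 of 6 (Dlk1, Meg3 and Rtl1) were at least 2-fold higher in WT_NP, where 16.2% of 14086 genes were, and 0 were lower, against 11.3%. Dlk1 was 30.6-fold higher (19.5 to 51.2), Meg3 3.32-fold (3.19 to 3.45) and Rtl1 3.46-fold (3.09 to 3.87). Rian and Mirg were 1.85-fold (1.77 to 1.93) and 2.00-fold (1.76 to 2.28) higher, under a log2 ratio of 1 with the pseudocount, and Dio3 was 1.94-fold higher (1.26 to 3.06). These folds depend on the scaling: as deposited, they were 15.6 for Dlk1, 1.69 for Meg3, 1.76 for Rtl1, 1.02 for Mirg, 0.986 for Dio3 and 0.939 for Rian, the last 2 reversing.

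In the knockout 4 members reached 1 FPKM in DKO_NP or DKO_ES, Mirg and Rtl1 being under it in both. Of the 4, Meg3 and Rian were at least 2-fold lower in DKO_NP, where 11.2% of 14050 genes were, and Dlk1 was higher, against 11.8%. Meg3 was 4.08-fold lower (3.06 to 5.53) and Rian 2.70-fold lower (2.04 to 3.61), and neither was counted with a pseudocount of 5 FPKM. Dlk1 was 90.2-fold higher (41.2 to 247) and Dio3 3.37-fold higher (2.18 to 5.39), but Dio3 was not counted, since its log2 ratio with the pseudocount was 0.97. The differentiation ratios of Meg3 on the log2 scale were thus 1.72 in wild type and -1.49 in the knockout. The comparisons share libraries, so these values are not independent of the knockout ratios above.

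**Figure D3:**
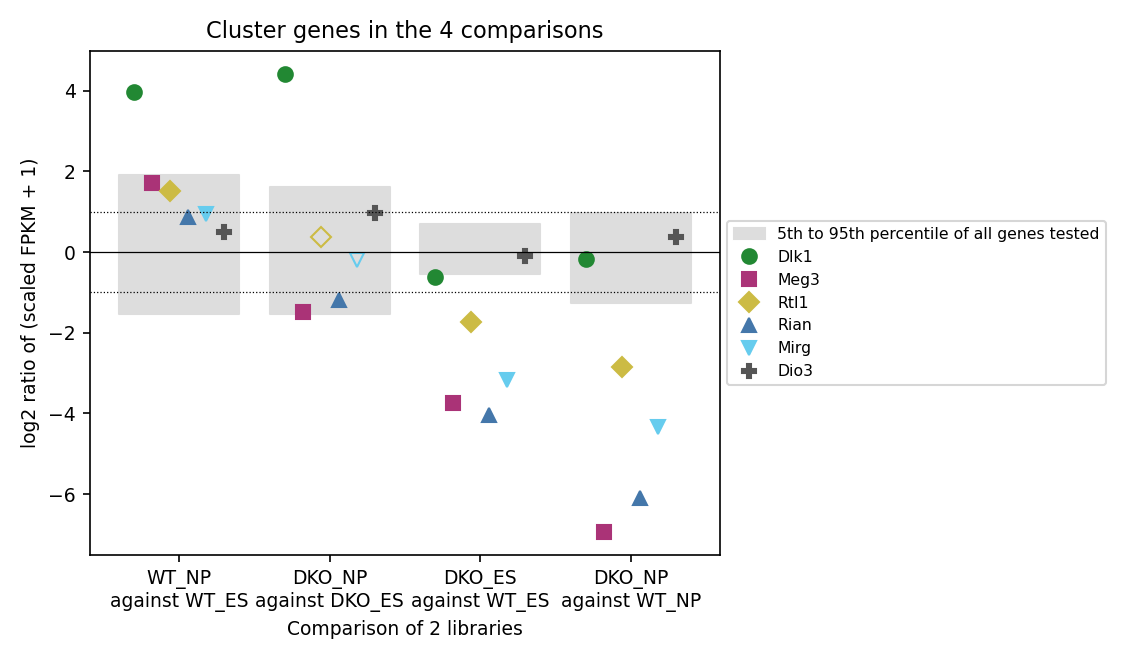
Log2 ratio of scaled FPKM plus 1 for each cluster gene in the 4 comparisons of 2 libraries, with dotted lines at 2-fold. Meg3 lies at -3.75 and -6.95 in the knockout comparisons, and at 1.72 and -1.49 in the wild-type and knockout differentiation, where Dlk1 lies at 3.97 and 4.43.

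The genes around the cluster had knockout ratios nearer 0 than the noncoding RNAs had. Of 28 rows outside the cluster in the stretch from Ccnk to Traf3, 23 reached 1 FPKM in an ES library. Counted on the log2 scale with the pseudocount, 0 of these were at least 2-fold lower or higher in DKO_ES after scaling. Over all genes 1.15% were lower and 2.56% higher, so a count of 0 in 23 lies near those shares. The log2 ratios of the 23 neighbours ran from -0.99 to 0.29. The 10 such genes before Dlk1 were all below 0, with a median of -0.59, from -0.16 for Degs2 to -0.99 for Yy1. Yy1, the gene of a zinc finger transcription factor, had 59.3 FPKM in wild-type and 27.7 in knockout ES cells, which as deposited is over 2-fold. Without the pseudocount some of these genes were also over 2-fold lower after scaling, among them Wdr25 at 2.14, Yy1 at 2.03 and Ccdc85c at 2.00. The 13 after Dio3 had a median of -0.10. In neural progenitors, counted with the pseudocount, 1 of 26, 6030440G07Rik, was at least 2-fold lower (7.99% of all genes were), at -1.09, though not as deposited. The chaperone gene Hsp90aa1 was the 1 that was higher (4.76% of all genes were), at 1.02.

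**Figure D4:**
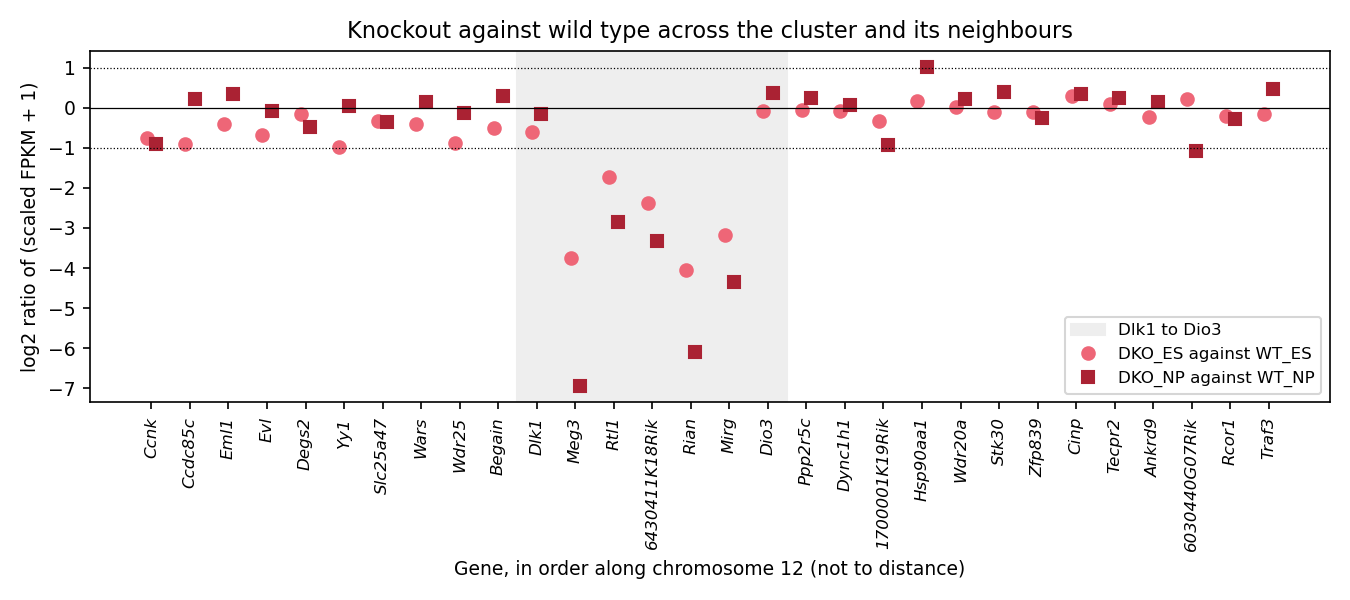
Log2 ratio of scaled FPKM plus 1, knockout against wild type, for cluster genes and their neighbours in order along the chromosome, with the Dlk1 to Dio3 stretch shaded. Neighbours lie between -1.09 and 1.02, while Meg3, Rian and Mirg lie between -3.18 and -6.95.

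Other imprinted genes were compared by the parental copy that carries their germline mark. Of 5 listed genes with a paternal mark elsewhere, 3 reached 1 FPKM. In DKO_ES 1 of these 3 was at least 2-fold lower and 1 higher (median -0.29), beside 1.15% and 2.56% of all genes. In DKO_NP 2 were lower and 1 higher (median -1.46), beside 7.99% and 4.76%. H19, a maternally read noncoding RNA, had log2 ratios, knockout against wild type, of 1.03 in ES cells, on levels of 17.9 and 36.0 FPKM for wild type and knockout, and 1.55 in neural progenitors, on 233 and 927. Igf2, the growth factor gene that shares its control region, had 9.89 FPKM in wild-type and 2.99 in knockout ES cells, then 192 and 94.0 in neural progenitors. The log2 ratios of Igf2 were -1.33 in ES cells and -1.46 in neural progenitors. H19, read from the unmethylated copy as Meg3 is, was higher in both knockout libraries, the opposite order to Meg3, though under 2-fold in ES cells as deposited with the pseudocount. Zdbf2 had 17.8 and 13.6 FPKM in ES cells and 14.8 and 4.84 in neural progenitors, with log2 ratios of -0.29 and -1.87. Of genes with a maternal mark, 1 of 32 was at least 2-fold lower in DKO_ES and 0 higher (median -0.03), near the 1.15% and 2.56% of all genes. In DKO_NP 6 of 37 were lower and 4 higher (median -0.22), beside 7.99% and 4.76% of all genes, and as deposited 2 were lower and 4 higher (median 0.17). The lowest of these in neural progenitors was Zim1, at -2.60, and the highest Phlda2, a growth-restraining gene, at 3.36.

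**Figure D5:**
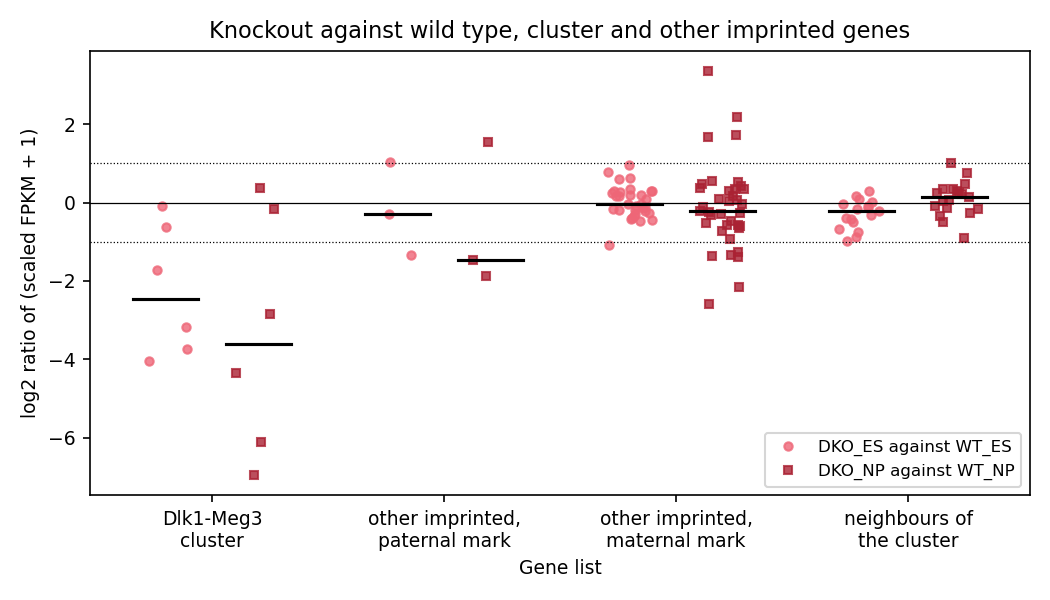
Log2 ratio of scaled FPKM plus 1, knockout against wild type, for the cluster, other imprinted genes by the parent of their mark, and neighbours of the cluster, at or above 1 FPKM in either library. Black bars are medians in ES cells and neural progenitors. They are -2.45 and -3.60 for the cluster, -0.29 and -1.46 for the 3 genes with a paternal mark elsewhere, and -0.03 and -0.22 for genes with a maternal mark.

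Genes known to keep or erase imprints were listed as background. Of 20, 1 was at least 2-fold lower in DKO_ES and 2 higher (1.15% and 2.56% over all genes), with a median of 0.05. Dppa3, which protects methylation in the early embryo and is known to act on this cluster, had 22.4 FPKM in wild-type and 83.4 in knockout ES cells. Zfp57, the zinc finger protein that keeps methylated imprints, had 171 and 139 FPKM. In DKO_NP against WT_NP 1 was lower and 4 higher (7.99% and 4.76% over all genes), and as deposited 0 and 7.

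Lists drawn from the roles of the coding members gave other counts. Among Notch receptors, ligands and targets, the pathway of Dlk1, 0 of 14 were at least 2-fold lower in DKO_NP than in WT_NP and 5 higher (7.99% and 4.76% over all genes), among them Hes5, a Notch target, at 2.74 and 32.6 FPKM. Hes5 is also on the neural progenitor marker list, which summed higher in DKO_NP. Among genes that handle thyroid hormone, the substrate of Dio3, 2 of 9 were lower and 0 higher, the lower ones being Ttr, a hormone carrier also on the endoderm list, and the receptor gene Thra, at 8.99 FPKM in WT_NP and 5.16 in DKO_NP. Thra had a log2 ratio of -1.11 after scaling and -0.70 as deposited, where it was not counted.

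The pattern of Rian lay closest to that of Meg3, with a root mean square difference of 0.345 between centred log2 profiles over the 4 libraries, and Mirg followed at 0.955. The noncoding RNAs were picked for low values in both knockout libraries, so their closeness to each other describes the choice at least in part. Among 9933 genes outside the cluster at or above 5 FPKM in a library, the closest to Meg3 were Tnc at 1.63, Gata4 at 1.76, Dnmt3a at 1.89, Pde9a at 2.01 and Dact2 at 2.02. Rtl1 lay at 1.67, between Tnc and Gata4. The closest to Dlk1 were Dach1 at 0.210, Hoxa4 at 0.222, Hoxa2 at 0.227 and Arg1 at 0.228, all higher in both neural progenitor libraries.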

How the data were processed

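RNA was measured in 4 libraries, 1 per group. Total RNA (5 µg) lost its rRNA by depletion before library synthesis with 15 PCR cycles and single-end sequencing of 50 cycles, per the labels. Bowtie, TopHat and build mm9 are named, per the submitters' processing notes; not given in the sources used here are versions, the FPKM program, its annotation and its use of strand. The authors deposited FPKM for 23235 symbols. The 18 blank rows were left out, and 0 columns were unmapped. A value of 0 may be a failed estimate, since Lars2, needed in mitochondria of every cell, has 10341 FPKM in DKO_ES but is listed at 0 in WT_ES, so no fold is given against 0.

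Low values are multiples of 1 read, and with transcript lengths less 200 bases they gave library denominators. Of 1130 low genes, 1019 (90.2%) came out whole after several step sizes were tried for each. The tolerance was 0.02 read, and it widened in proportion for larger read numbers. Reads of Dlk1 and Meg3 are lower bounds from the shortest transcript. Median scaling factors were 1.32, 1.25, 0.671 and 0.908 for WT_ES, DKO_ES, WT_NP and DKO_NP. Ratios are log2((scaled FPKM + 1)/(scaled FPKM + 1)), which understates differences of low genes, for genes at or above 1 FPKM as deposited in either library, and were counted at 2-fold. Folds have no pseudocount. Intervals are exact 95% (Poisson for levels, Clopper-Pearson for ratios).

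The members and lists were chosen with earlier results of these data known. Named genes are the members, neighbours of the cluster, at most 4 per other list and comparison with the largest log2 ratio, Dnmt3a and Dnmt3b, and the 5 closest in pattern to Meg3 and Dlk1, leaving out small RNAs and unnamed models (1 of these genes is not reported here); Zfp57 in ES cells, 6430411K18Rik, 6030440G07Rik and the small RNA rows were chosen after their values were seen. Scripts, tested on simulated data, used Python 3.11.15, numpy 2.4.6, pandas 2.3.3, scipy 1.17.1 and matplotlib 3.10.9. Other scalings, pseudocounts and filters were tried.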

Additional observations from a re-analysis of the deposited data

Results flagged for a closer look

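Each of the following is a difference between libraries whose direction was opposite in the 2 genotypes or cell types. None was tested, because each group holds 1 library. Meg3 had a differentiation log2 ratio of 1.72 in wild type and -1.49 in the knockout, a difference of -3.20. Rian had 0.88 and -1.18, a difference of -2.06, though its wild-type ratio was -0.09 as deposited. Mirg had 0.95 and -0.21, a difference of -1.16, with both knockout values under 1 FPKM. The knockout fold of Mirg was 0.671 with an interval of 0.297 to 1.49, so its direction is not settled by the reads. As deposited, the wild-type ratio of Mirg was 0.02 and the difference -0.41. Dio3 had a knockout against wild-type ratio of -0.09 in ES cells and 0.38 in neural progenitors, a difference of 0.47, on 26 to 107 reads per library. The ES fold of Dio3 was 0.861 with an interval of 0.489 to 1.51, so its direction in ES cells is not settled by the reads.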

How the results depend on the processing

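The count of 4 members at least 2-fold lower in DKO_NP than in WT_NP held under the 6 alternatives, with Meg3, Rian, Mirg and Rtl1 in each. The size of these folds depended on the scaling. As deposited they were 156 for Meg3, 68.1 for Rian, 45.9 for Mirg and 13.1 for Rtl1. Those of Meg3, Rian and Rtl1 lie under the intervals given after scaling. In DKO_ES against WT_ES the count was 5 (with Dlk1) at a pseudocount of 0.1 FPKM, and 3 (without Rtl1) at a pseudocount of 5 FPKM or a filter at 5 FPKM. No called member changed sign. In WT_NP against WT_ES, 1 member (Dlk1) in place of 3 was at least 2-fold higher as deposited. In DKO_NP against DKO_ES, 0 in place of 2 were lower with a pseudocount of 5 FPKM, and 2 in place of 1 (Dlk1 and Dio3) were higher with 0.1 FPKM. Over all genes, the higher and lower counts were 2287 and 1592 after scaling and 901 and 5876 as deposited in WT_NP against WT_ES (59.0% and 13.3% higher), 1656 and 1570 against 1102 and 3067 in DKO_NP against DKO_ES (51.3% and 26.4%), and 648 and 1087 against 1382 and 531 in DKO_NP against WT_NP (37.3% and 72.2%). The median of all genes as deposited was 0.39 in the last. No paired analysis was possible because each group holds 1 library, and for the same reason no library could be left out. Depth limits Mirg in the knockouts, Dlk1 in DKO_ES and the microRNA rows, which rest on few reads.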

Other observations

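Other genes of the sushi-ichi retrotransposon family, to which Rtl1 belongs, were counted as a list. In WT_NP against WT_ES 2 of 4 at or above 1 FPKM were at least 2-fold higher (16.2% of all genes were), and 0 of 4 as deposited. In DKO_NP against DKO_ES 7 of 7 were higher (11.8% of all genes), and 5 of 7 as deposited. Among them were Ldoc1, with 1.09 FPKM at day 0 and 10.9 at day 6, and Peg10, a placental gene, with 54.4 and 211. Under the filter, a gene below 1 FPKM at day 0 enters only when its day 6 level is higher. Cxx1a (0.382, then 1.70 FPKM) and Cxx1c (0.234, then 2.48) entered in this way. Of 10 genes with a row 7 passed, so the 7 of 7 is set in part by the filter. Cxx1c also entered the wild-type count through WT_NP alone (0.170, then 1.13 FPKM). In DKO_NP against WT_NP 0 of 7 were lower and 1, Ldoc1, was higher (7.99% and 4.76% of all genes), at 0.363 FPKM in WT_NP. Of 10 genes of Polycomb repressive complex 2, which places a repressive histone mark, 0 were at least 2-fold lower or higher in DKO_ES than in WT_ES (1.15% and 2.56% of all genes), and in DKO_NP against WT_NP 0 were lower and 1, Phf19, was higher, at 0.990 FPKM in WT_NP and 4.60 in DKO_NP. Counts of 0 or 1 in 10 lie near those shares of all genes.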
